A study of Mus musculus with 48 samples.

Results

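Of the 1171 rows of the deposited gene count table that carry a microRNA gene name and lie outside the miR-290 to miR-295 cluster and the host gene transcripts, 25 had a mean raw count of at least 20 over the 8 nascent RNA libraries. These 25 rows, out of 55376 rows in all, are described here. They were chosen by that mean count alone, so their level is a description and was not tested. The libraries came from mouse embryonic stem cells of the line TCF2.2, derived in 2i medium (strain label C57BL/6), and hold RNA that took up 500 µM 4-thiouridine during 5 min and was pulled down through that label. Groups of 2 libraries each received BRM014, an inhibitor of the ATPases BRG1 and BRM of SWI/SNF, at 10 µM for 3 h, DMSO for 3 h, a lentivirus with an shRNA to Chd4, the remodelling ATPase of NuRD, or a lentivirus with a scrambled shRNA. Both shRNA groups were kept for 24 h in 1.5 µg/mL puromycin, and the labels of the DMSO and BRM014 groups name no lentivirus. The design text calls the libraries biological duplicates.

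A microRNA gene is transcribed by RNA polymerase II into a primary transcript, often inside an intron or exon of another gene. The nuclear enzyme DROSHA with its partner DGCR8 cuts a hairpin out of this transcript, DICER trims the hairpin, and a strand of it guides an Argonaute protein to messenger RNAs that pair with its seed, bases 2 to 8. Mouse embryonic stem cells are known for microRNAs with related seeds from the miR-290, miR-302 and miR-17 families, which promote their cell cycle, while let-7 accumulates on differentiation. A count in nascent RNA measures reads of about hairpin-sized genome intervals, whether they come from a primary transcript, from a host gene or from another RNA of that place, and does not measure the mature microRNA.

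Mature sequences from RefSeq (GRCm38.p6) were used for 22 of the 25 rows, 30 entries in all, of which 28 were distinct. The following are those of rows that changed in a comparison and of the miR-692 rows, which share a sequence. They run 5′ to 3′ and the capitals mark the seed.
miR-6236: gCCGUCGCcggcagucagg
miR-682: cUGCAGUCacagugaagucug
miR-6516-5p: uUUGCAGUaacagguguggaca
miR-6516-3p: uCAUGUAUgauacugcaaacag
miR-1291: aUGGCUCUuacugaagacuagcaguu
miR-5136: aUAUGCGAgggaacuacugg
miR-1894-5p: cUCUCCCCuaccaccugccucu
miR-1894-3p: gCAAGGGAgagggugaagggag
miR-6240: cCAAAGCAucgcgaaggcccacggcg
miR-692: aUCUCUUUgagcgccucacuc
The 28 distinct sequences carried 28 distinct seeds, so that the only seed found in more than 1 row was that of miR-692, which Mir692-1, Mir692-2 and Mir692-3 encode identically. None of these seeds (0) was shared with the 70 mature sequences that RefSeq gives for 40 genes of the miR-17, miR-302, let-7, miR-15, miR-130 and miR-21 families, or with the miR-290 cluster (0). Mir684-1, Mir1949 and Mir5117 are given without a sequence, and that of Mir1949 was not searched for.

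The label of microRNA gene held for the names, but the microRNA families best known in stem cells were not among the 25. The miR-17 family clusters had 15 rows and 0 members, and their highest row, Mir93, had a mean of 10.2 counts. The 10 let-7 rows reached at most 5.38 (Mirlet7d), the 5 rows of the miR-302 cluster at most 2.38 (Mir302b), the 4 rows of the miR-15 family at most 3.62 (Mir15b), the 4 rows of the miR-130 family at most 9.62 (Mir301b), and Mir21a had 0.875. Rows of microRNAs of muscle, liver, brain, blood and other tissues, 33 in all, summed to between 8 and 27 counts per library. The 1146 rows below the minimum had a median mean count of 0.625, 727 of them were under 1, and 102 had 0 counts throughout. The last rows inside the minimum were Mir762 with 25.9, Mir7067 with 25.4 and Mir6240 with 20.1, and the first outside it were Mir1983 with 17.6, Mir5099 with 17.6 and Mir546 with 16.8. At the host gene level, Mir17hg, the transcript of the miR-17 to miR-92 cluster, had normalised counts of 69.3 and 103 in DMSO, 58.5 and 46.3 in BRM014, 136 and 148 in scrambled and 101 and 121 in Chd4 shRNA libraries, and was not among the genes tested.

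Most of the 25 lie inside other genes. In the coordinates of the table (mm10), 18 overlapped another row on the same strand, 3 overlapped a row on the opposite strand only, 3 overlapped none and Mir5117 had no coordinates. Hosts on the same strand included genes of ribosomal proteins (Mir5121 in Rpl13a, Mir3091 in Rps21), snoRNA and other non-coding host genes (Mir6516 in Snhg20, Mir1949 in Snhg4), the proteasome subunit gene Psmb5 (Mir686), the RNA helicase genes Ddx5 (Mir3064) and Ddx39b (Mir8094), the metabolic genes Scd2 (Mir5114) and Tkt (Mir3076), Parp1 (Mir6904), Gnb2 (Mir6418) and Ppp1r10 (Mir1894). Rows named for small nucleolar or Cajal body RNAs overlapped 3 of them: Mir1291 with Snora34, Mir3069 with Scarna13 and Mir5121 with Snord33. Gm26083, which overlaps Mir6516, had no RNA type in the sources used here. Pseudogenes of ferritin light chain held Mir692-3 (Ftl1-ps1) and Mir692-2 (Ftl2-ps). Whether a row lies in an exon or an intron was not determined, because exon positions were not used here. The rows are between 60 and 145 bases long, with a median of 86.

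Levels were unequal. Mir6236, at chr9:110281287-110281409 on the plus strand and within the RefSeq lncRNA Gm39429, held 60.9% of all counts of the 25 rows, with a mean raw count of 6724. It was followed by Mir682 with 1308 (mean raw counts here and in the next sentence), Mir5121 with 844 and Mir6516 with 397. Mir692-3 had 235, Mir686 186, Mir1949 178.5, Mir1291 178, Mir692-2 161 and Mir3069 127. Altogether 11 rows had a mean above 100 and 11 a mean below 50. In 16 of the 25 the group mean was at or above 20 in every group. The other 9 were below it in the Chd4 shRNA libraries, 3 of them also in the scrambled and 1 also in the BRM014 libraries.

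**Figure D1:**
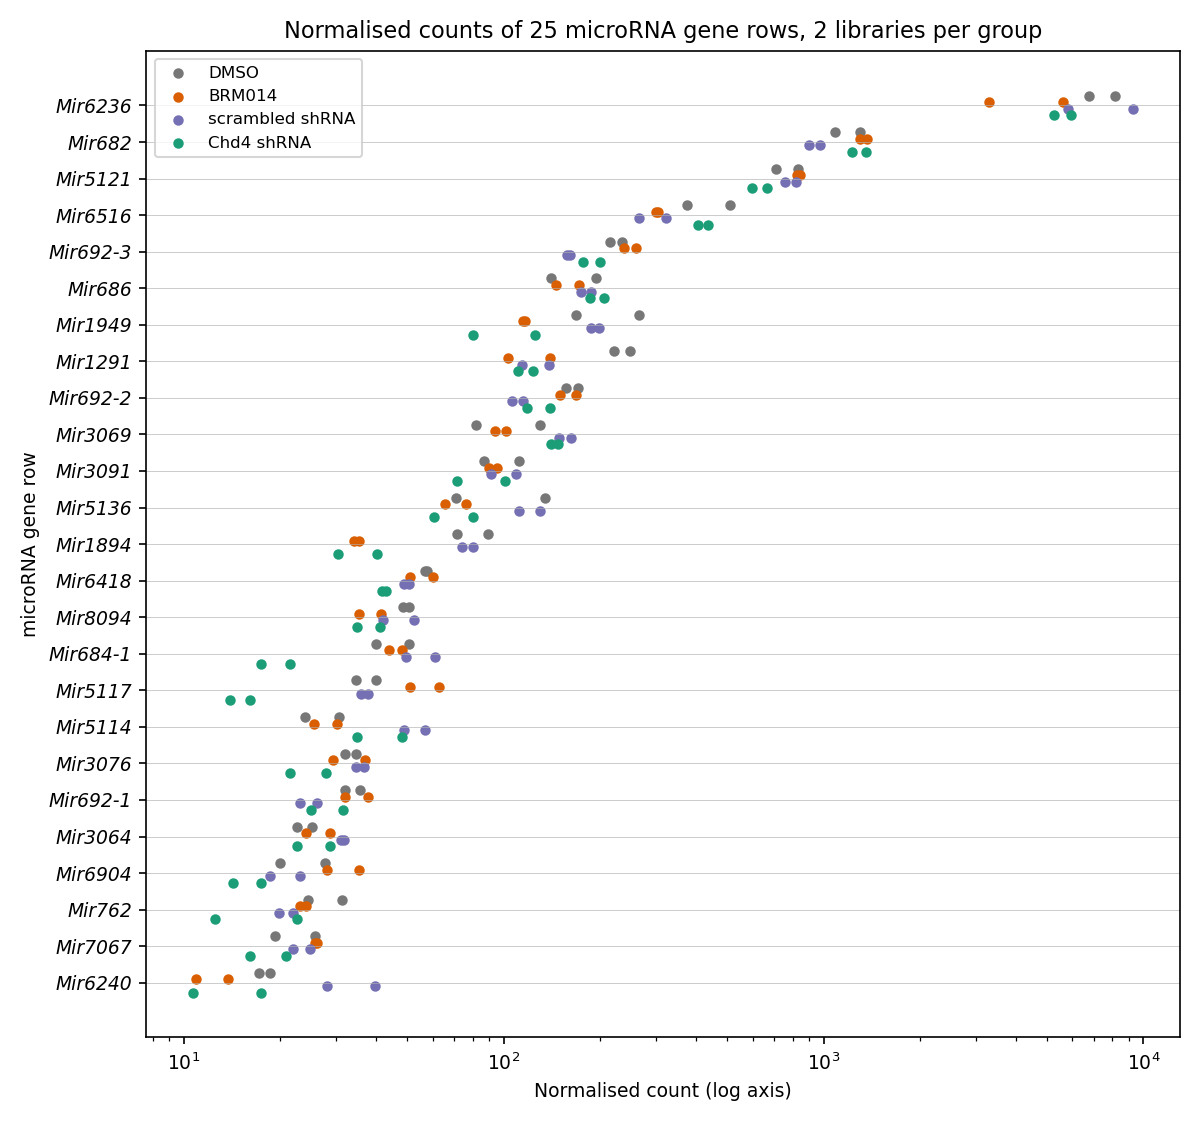
Normalised count (log axis) of each of the 25 microRNA gene rows, ordered by mean raw count, with 1 point per library and 2 libraries in each of the 4 groups. Mir6236 stands highest in every library, and Mir684-1 and Mir5117 have both Chd4 shRNA points below all other points of their row.

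The 8 libraries held between 6982354 and 17128981 gene counts, the fewest in those labelled Chd4 shRNA. Background, read on receptor genes of the olfactory and vomeronasal organs, was 6.78 and 7.21 counts per kb in these 2 libraries and between 1.32 and 2.66 in the other 6, while the non-member microRNA rows averaged 1.33 counts in both and between 0.828 and 1.58 in the others. Nascent RNA of Chd4 itself was higher rather than lower in the libraries labelled Chd4 shRNA (0.59 ± 0.16 SE, adjusted p = 0.00614, edgeR). Such a count does not measure mature messenger RNA or protein, so that the knockdown cannot be judged from it. Every direction below is that of libraries with this label. For Smarca4, the gene of BRG1, nascent RNA had a log2 fold change of 0.11 ± 0.16 with BRM014 (not called). In the Chd4 shRNA libraries Smarca4 was higher too (0.61 ± 0.17, adjusted p = 0.00672, edgeR). Of 10 stem cell markers all were detected, and their summed normalised count was between 19949 and 20399 in the Chd4 shRNA libraries against 31911 to 33129 in the scrambled, 31221 to 36793 in the DMSO and 33160 to 34577 in the BRM014 libraries. The most abundant of them was Dppa5a, and such a sum follows the abundant genes. Lin28a, on the same list, went the other way, at 49.5 and 29.2 in scrambled and 104 and 92.9 in Chd4 shRNA libraries. Values of the other markers are not given here. The 21 markers of primitive endoderm, trophectoderm, mesoderm, neural cells and fibroblasts, none of which (0) was at 0 throughout and of which 1 (Nes) passed the expression filter, summed to between 2002 and 2170 in the Chd4 shRNA libraries, 571 to 650 in the scrambled, 493 to 525 in the DMSO and 429 to 451 in the BRM014 libraries. A sum over rows near the background can rise with the background, which was highest in the Chd4 shRNA libraries. The part of background in the sum of the 21 markers was not tested. The part of all these differences in the results for the Chd4 shRNA label was not tested either.

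BRM014 lowered 5 of the 25 rows and raised 1 against DMSO, and 19 were not called. Among all 8017 expressed genes 4.69% were lower and 2.46% higher, and among the 550 of at most 200 bases, the length class of every member, 30.2% were lower and 0.909% higher. The members' share of 20% lower thus lies between the shares of all expressed genes and of short ones. The median log2 fold change of the 25 was -0.05, beside -0.005 for all expressed genes and -0.39 for the short ones. Calls are edgeR quasi-likelihood tests with a Benjamini-Hochberg adjusted p under 0.05 over the 8017 genes, and every value is relative to the typical expressed gene. In bulk RNA, fewer cells that make a transcript and less transcript per cell cannot be told apart. With 2 libraries in each group, the smallest p of an exact permutation test on a single row is 0.333.

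Mir1894 (chr17:35917889-35917969, plus strand) fell most. It lies on the strand of Ppp1r10, which encodes a regulatory subunit of protein phosphatase 1. Its normalised counts were 71.3 and 89.4 in DMSO and 35.2 and 34.1 in BRM014 libraries. Both BRM014 values were under both DMSO values, a log2 fold change of -1.22 ± 0.18 (SE; adjusted p = 0.00011, edgeR). Ppp1r10 fell with it, from 1143 and 1346 to 647 and 611, a log2 fold change of -0.98 ± 0.13 (adjusted p = 5.17e-05, edgeR).

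Mir1291 (chr15:98519762-98519878, minus strand) fell by 0.93 ± 0.14 on the log2 scale (SE; adjusted p = 0.000225, edgeR), from normalised counts of 221 and 249 in DMSO to 103 and 140 in BRM014 libraries, which did not overlap. It overlaps Snora34, an H/ACA snoRNA of the kind that guides pseudouridylation, in Kansl2, the gene of a subunit of the NSL acetyltransferase complex. Snora34 fell by 0.95 ± 0.15 (adjusted p = 0.000209, edgeR) with normalised counts of 221 and 251 against 103 and 139. The host Kansl2 did not move with them, at 223 and 249 in DMSO and 277 and 269 in BRM014 libraries, 0.21 ± 0.13 on the log2 scale (not called).

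Mir1949 (chr18:35554567-35554636, plus strand) fell with its host Snhg4, a non-coding snoRNA host gene. Normalised counts of Mir1949 were 265 and 168 in DMSO and 115 and 116 in BRM014 libraries, without overlap, a log2 fold change of -0.90 ± 0.18 (SE; adjusted p = 0.00268, edgeR). Without DMSO library 1, the higher of the pair, it was -0.53 (adjusted p = 0.0305, edgeR, in a range of 1.83e-07 to 1.00 over its alternatives). Snhg4 had 914 and 898 against 682 and 630, -0.47 ± 0.14 (adjusted p = 0.0435, edgeR). The row of Mir1949 is given a length of 145 bases while its coordinates span 70, so that the coordinates do not cover all that was counted.

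Mir6516 (chr11:117077348-117077457, plus strand) fell, and so did rows that overlap it. Its normalised counts were 510 and 375 in DMSO and 300 and 304 in BRM014 libraries, -0.55 ± 0.15 on the log2 scale (SE; adjusted p = 0.0238, edgeR). The overlapping row Gm26083 fell by 0.62 ± 0.15 (adjusted p = 0.0105, edgeR), and the non-coding host gene Snhg20 by 0.67 ± 0.14 (adjusted p = 0.00441, edgeR). Over the libraries the count of Mir6516 was 40.2% to 60.0% of that of Snhg20. If the same reads were counted in these rows, their falls are not separate results, and this was not tested. The call for Mir6516 was lost without DMSO library 1 (log2 fold change -0.31, adjusted p = 0.191), BRM014 library 1 (adjusted p = 0.134) or BRM014 library 2 (adjusted p = 0.177), within a range of 0.00016 to 1.00 over all edgeR and DESeq2 alternatives.

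Mir6236 had 8137 and 6772 normalised counts in DMSO and 5598 and 3295 in BRM014 libraries, a log2 fold change of -0.75 ± 0.21 (SE; adjusted p = 0.0351, edgeR). The 2 BRM014 libraries differed from each other by more than the gap between the nearest values of the groups, 6772 and 5598. Without BRM014 library 2, the lower of the pair, the log2 fold change was -0.39 (adjusted p = 0.532), without BRM014 library 1 it was -1.16 (adjusted p = 0.000817), without DMSO library 1 the adjusted p was 0.115 and without Chd4 shRNA library 1 it was 0.0541, in a range of 0.0005 to 1.00 over all edgeR and DESeq2 alternatives. Rows to which ribosomal RNA reads are known to map, chosen after their values were seen, are given beside it because they vary in the same libraries: Gm42418 had 1068220 and 605330 normalised counts in the BRM014 libraries and AY036118 had 892255 and 501897, both lower in library 2 as Mir6236 was. Their log2 fold changes were -0.17 ± 0.27 and -0.10 ± 0.26, neither called, and CT010467.1 had -0.09 ± 0.29 (not called). Gm26917, another such row, was called lower, at 612979 and 656366 in DMSO and 274420 and 188259 in BRM014 libraries. Its log2 fold change was -1.46 ± 0.25 (SE; adjusted p = 0.000625, edgeR). The part of ribosomal RNA in the counts of Mir6236 was not tested.

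Mir5117 was the only row called higher with BRM014. Normalised counts were 34.7 and 39.8 in DMSO and 62.7 and 51.1 in BRM014 libraries, a log2 fold change of 0.59 ± 0.17 (SE; adjusted p = 0.042, edgeR). The call was lost in 12 of 22 alternatives, among them DESeq2 (adjusted p = 0.352) and the fits without BRM014 library 1 (0.329), BRM014 library 2 (0.0657), DMSO library 1 (0.14) or Chd4 shRNA library 1 (0.0626), each an adjusted p, in a range of 2.96e-05 to 1.00. Its genomic place is not known here.

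The 19 rows not called with BRM014 had log2 fold changes between -0.55 (Mir6240) and 0.38 (Mir6904). Mir5136 (chr19:8888699-8888774, minus strand) had 135 and 71 normalised counts in DMSO and 76.5 and 65.7 in BRM014 libraries, -0.53 ± 0.22 (SE; adjusted p = 0.151, edgeR). The groups overlapped, and the value rests on DMSO library 1: it was -0.01 without that library (adjusted p = 0.975) and -0.93 without DMSO library 2 (adjusted p = 7.12e-05), the lowest adjusted p of its edgeR and DESeq2 alternatives, which reached 1.00. Snora57, an H/ACA snoRNA whose row ends 14 bases from it on the same strand, was called lower, at 282 and 195 against 136 and 146, a log2 fold change of -0.75 ± 0.15 (adjusted p = 0.00309, edgeR).

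In the libraries labelled Chd4 shRNA, 6 of the 25 rows were lower and 2 higher than in the scrambled libraries, and 17 were not called. Of all 8017 expressed genes 20.2% were lower and 20.4% higher, and of those of at most 200 bases 18.7% and 18.4%. Without Mir6240, whose membership rests on the scrambled libraries, the lower rows were 5. The members' 24% lower is near the share of all expressed genes, and their 8% higher is below it. Their median log2 fold change was -0.32, beside 0.005 for all expressed genes and -0.05 for the short ones, and 19 of the 25 values were below 0. Mir6236, the most abundant row, had 9261 and 5812 normalised counts in scrambled and 5241 and 5945 in Chd4 shRNA libraries. Its log2 fold change was -0.43 ± 0.21 (SE; adjusted p = 0.112, edgeR), and the groups overlapped. It was called lower in 7 of 20 alternatives, and without scrambled library 3 the log2 fold change was -0.73.

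Mir684-1 (chr2:80628705-80628790, minus strand) fell most in these libraries. Normalised counts were 49.5 and 60.8 in scrambled and 17.4 and 21.4 in Chd4 shRNA libraries, without overlap, a log2 fold change of -1.50 ± 0.29 (SE; adjusted p = 0.000435, edgeR). In the table it lies opposite the genes Dusp19 and Nup35 and 494 bases from the row of the pseudogene Gm13690, whose RefSeq span contains it. Gm13690 fell less, from 136 and 156 to 99.3 and 104, -0.53 ± 0.17 (adjusted p = 0.0172, edgeR), and Nup35, a nucleoporin gene, had 150 and 151 against 139 and 129 (-0.17 ± 0.16, not called). With BRM014 Mir684-1 had 43.8 and 48.1 against 50.7 and 39.8 in DMSO libraries, 0.04 ± 0.18 (not called).

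Mir5117, the row raised with BRM014, was lower here. Normalised counts were 35.9 and 37.7 in scrambled and 13.9 and 16.1 in Chd4 shRNA libraries, a log2 fold change of -1.29 ± 0.33 (SE; adjusted p = 0.00368, edgeR). The groups did not overlap, and the 2 Chd4 shRNA values were the lowest of all 8.

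Mir1894 was lower with this label as well. It had 74.3 and 80.3 normalised counts in scrambled and 40.0 and 30.4 in Chd4 shRNA libraries, a log2 fold change of -1.13 ± 0.24 (SE; adjusted p = 0.000972, edgeR), close to its size with BRM014. The host Ppp1r10 had 1248 and 1059 against 1008 and 995, -0.20 ± 0.14 (adjusted p = 0.246, edgeR). The gap between Mir1894 and its host was not tested.

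Mir1949 and Snhg4 were again lower together. Mir1949 had 199 and 187 normalised counts in scrambled and 125 and 80.4 in Chd4 shRNA libraries, -0.91 ± 0.23 on the log2 scale (SE; adjusted p = 0.00333, edgeR), and Snhg4 988 and 854 against 696 and 523, -0.59 ± 0.15 (adjusted p = 0.00303, edgeR). Without Chd4 shRNA library 4, the lower of the pair, the adjusted p of Mir1949 was 0.0749 in edgeR, in a range of 5.7e-08 to 0.823 over its alternatives.

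Mir6240 (chr5:114851948-114852064, plus strand) and Mir5136 were the other rows that fell. Mir6240 had 39.6 and 28 normalised counts in scrambled and 17.4 and 10.7 in Chd4 shRNA libraries, -1.25 ± 0.34 (SE; adjusted p = 0.00583, edgeR). The DMSO libraries had 18.7 and 17.1 and the BRM014 libraries 13.8 and 11. Its mean raw count was 17.7 without the scrambled and 17.5 without the DMSO libraries, under the minimum of 20, so that it is a member only through the groups where it was high, and its lower value here is a description that supports nothing further. Of the ribosomal RNA rows named above, Gm42418 (-0.77 ± 0.27), AY036118 (-0.73 ± 0.27) and Gm26917 (-1.07 ± 0.25) were called lower in this comparison. CT010467.1 had -0.71 ± 0.29 (not called). The part of ribosomal RNA in the counts of Mir6240 was not tested. Mir5136 had 111 and 130 against 80.1 and 60.7, -0.78 ± 0.27 (adjusted p = 0.0284, edgeR), and its neighbour Snora57 256 and 276 against 141 and 145, -0.90 ± 0.18 (adjusted p = 0.000585, edgeR). Neither group pair overlapped. Leaving out 1 library ended the call of Mir6240 (Chd4 shRNA library 4, adjusted p = 0.105; scrambled library 1, 0.0834; range 5.47e-07 to 0.733 over its alternatives) and that of Mir5136 (Chd4 shRNA library 4, adjusted p = 0.181; scrambled library 3, 0.126; range 1.2e-06 to 0.877). With background subtracted, an alternative chosen after the data were seen, Mir5136 had an adjusted p of 0.0897.

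The 2 rows that rose were Mir6516 and Mir682. Mir6516 had 265 and 321 normalised counts in scrambled and 404 and 436 in Chd4 shRNA libraries, 0.52 ± 0.16 on the log2 scale (SE; adjusted p = 0.0143, edgeR). Gm26083, the row that overlaps it, rose by 0.53 ± 0.16 (adjusted p = 0.0124, edgeR), while the host Snhg20 had 660 and 788 against 696 and 727 (-0.02 ± 0.15, not called). Reads of Mir6516 may be part of the Snhg20 count, so that this value does not give the change in the rest of the host. Mir682 (chr13:75645046-75645141, plus strand) had 904 and 972 against 1360 and 1224, 0.46 ± 0.14 (adjusted p = 0.00996, edgeR). It lies inside the pseudogene Gm4149, which had 1728 and 1904 against 2227 and 2040, 0.23 ± 0.15 (not called). Leaving out 1 library ended both calls: for Mir6516 Chd4 shRNA library 4 (adjusted p = 0.102) or scrambled library 1 (0.123), in a range of 0.000136 to 0.841, and for Mir682 Chd4 shRNA library 1 (0.11) or scrambled library 1 (0.0716), in a range of 1.41e-05 to 0.837. Where the library sizes came from all 35426 genes that passed the filter, background included, both rises turned into falls (-0.83 and -0.89), as the median expressed gene shifted by -1.34.

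**Figure D2:**
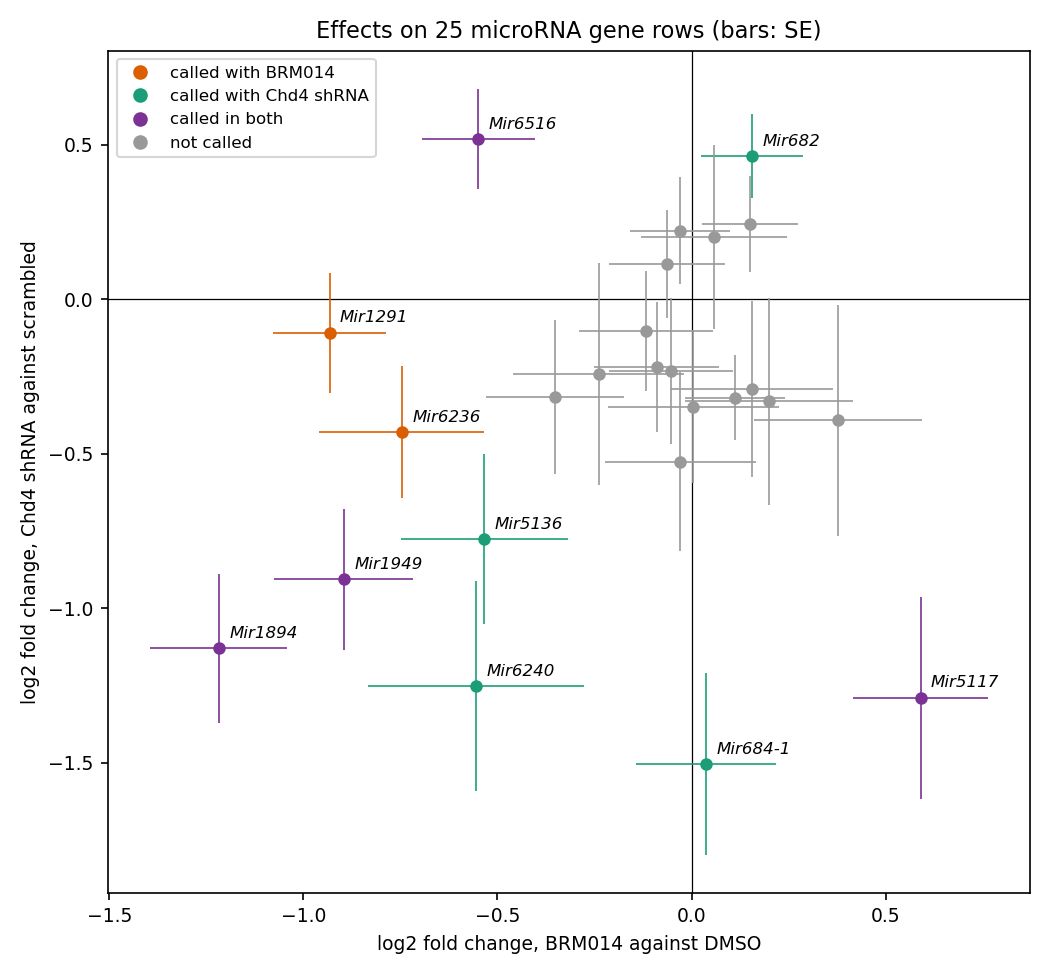
Log2 fold change of the 25 rows with BRM014 against DMSO (x axis) and in Chd4 shRNA against scrambled libraries (y axis), with bars of 1 SE and colours for the rows called in either comparison. Mir1894 and Mir1949 lie low on both axes, Mir6516 and Mir5117 lie on opposite sides of 0 in the 2 comparisons, and Mir684-1 lies at 0.04 with BRM014 and at -1.50 with the Chd4 shRNA label.

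The comparisons have separate controls, so that the difference between their effects could be tested in the same fit. It was called for 4 rows, 2 with a higher and 2 with a lower effect of the Chd4 shRNA label than of BRM014, where 16.4% and 14.5% of all expressed genes, and 29.6% and 5.09% of those of at most 200 bases, were called. The effect on Mir6516 was higher by 1.07 ± 0.22 on the log2 scale (SE; adjusted p = 0.00101, edgeR) and that on Mir1291 by 0.82 ± 0.24 (adjusted p = 0.014, edgeR). For Mir5117 it was lower, a difference of -1.88 ± 0.37 (adjusted p = 0.000714, edgeR), and for Mir684-1 a difference of -1.54 ± 0.35 (adjusted p = 0.00226, edgeR). That of Mir1291 was no longer called without BRM014 library 1 (adjusted p = 0.0868), Chd4 shRNA library 1 (0.0894) or scrambled library 3 (0.0675), in a range of 0.0038 to 0.999 over its alternatives. Mir1894 and Mir1949, lower in both comparisons, had differences of 0.09 ± 0.31 and -0.01 ± 0.29 (neither called).

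For 15 rows a host gene on the same strand that was among the genes tested is reported, taking the most abundant where there were several. Rows that form a single interval, such as Scarna13, Gm4149 and Ftl2-ps, were not taken as hosts. Mir3069 was therefore paired with the non-coding gene Snhg10, and Mir682 and Mir692-2 had no pair. Row and host had a log2 fold change of the same sign in 13 of 15 pairs with BRM014 and in 12 of 15 in the Chd4 shRNA libraries. Reads may be counted for both members of a pair, so that the pairs are not independent measurements, and no test was made. Among pairs with a called host, Ppp1r10, Snhg20 and Snhg4 fell with BRM014 together with their microRNA rows. In the Chd4 shRNA libraries Snhg4 fell with Mir1949. Gnb2, the gene of a G protein beta subunit, fell by 0.76 ± 0.14 (adjusted p = 0.000292, edgeR) while Mir6418 had 50.8 and 48.7 against 41.8 and 42.9 (-0.23 ± 0.24, not called). Tkt, the transketolase gene, fell by 0.37 ± 0.14 (adjusted p = 0.0335, edgeR) and Mir3076 had 34.7 and 36.5 against 27.9 and 21.4 (-0.53 ± 0.29, not called).

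**Figure D3:**
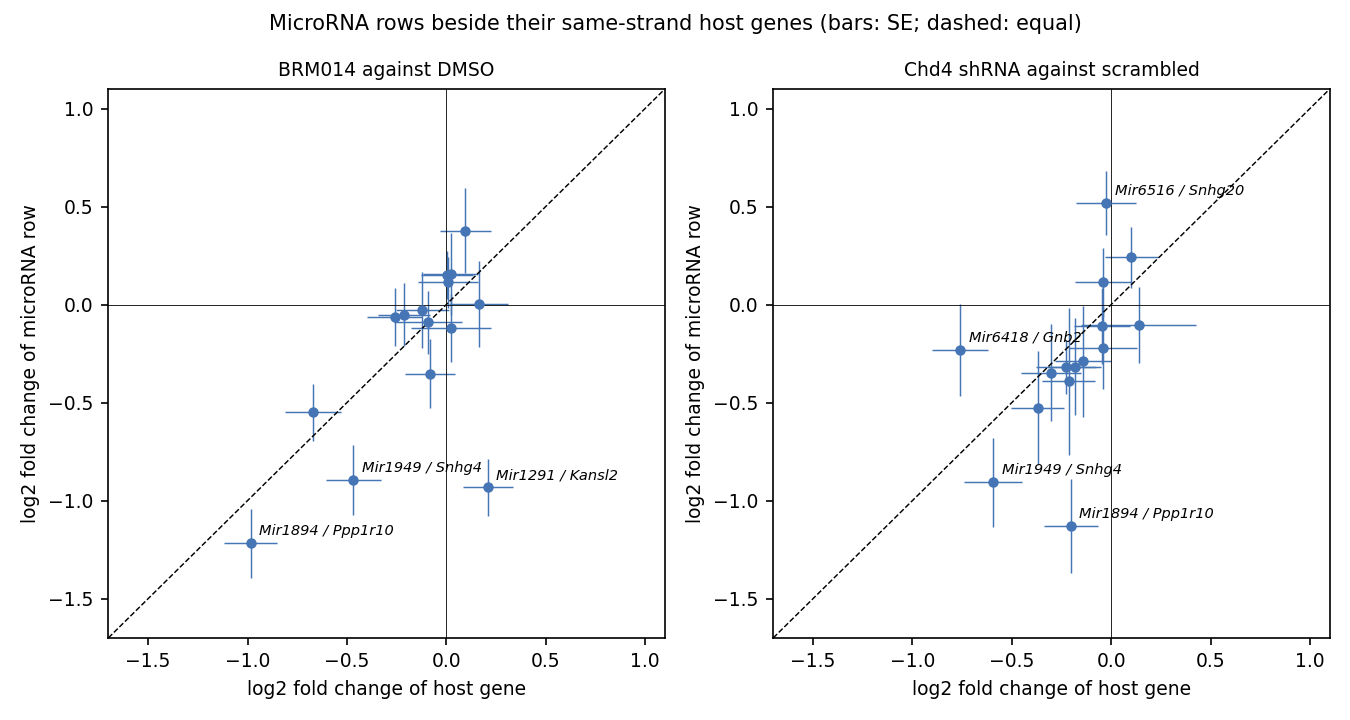
Log2 fold change of 15 microRNA rows (y axis) against that of their same-strand host gene (x axis), with bars of 1 SE and a dashed line of equal change, for BRM014 against DMSO (left) and Chd4 shRNA against scrambled (right). Mir1291 lies at -0.93 where its host Kansl2 lies at 0.21 on the left, and Mir1894 lies at -1.13 where Ppp1r10 lies at -0.20 on the right.

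Several rows lie at the same place as a small RNA, a pseudogene or, for Mir6516, the row Gm26083 of no given type. The count of Mir1291 was between 96.6% and 101% of that of Snora34 in every library, and whether the same reads were counted in both rows was not tested. For Mir6516 and Gm26083 the share was 88.5% to 93.8%. Mir682 had 49.7% to 61.1% of the count of Gm4149, which contains it as a single interval, and Mir3069 had 12.7% to 21.9% of that of Scarna13, a Cajal body RNA. Reads inside such an interval lie on 2 rows and were counted all the same, so overlap did not remove them. Scarna13 rose in the Chd4 shRNA libraries, from 741 and 713 to 1107 and 997 normalised counts (0.53 ± 0.13, adjusted p = 0.00246, edgeR), while Mir3069 had 162 and 148 against 141 and 148 (-0.10 ± 0.19, not called). Snord33, a C/D snoRNA of the kind that guides ribose methylation, had a mean of 16.2 raw counts against 844 for Mir5121, so that this microRNA row was not covered through the snoRNA row alone.

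**Figure D4:**
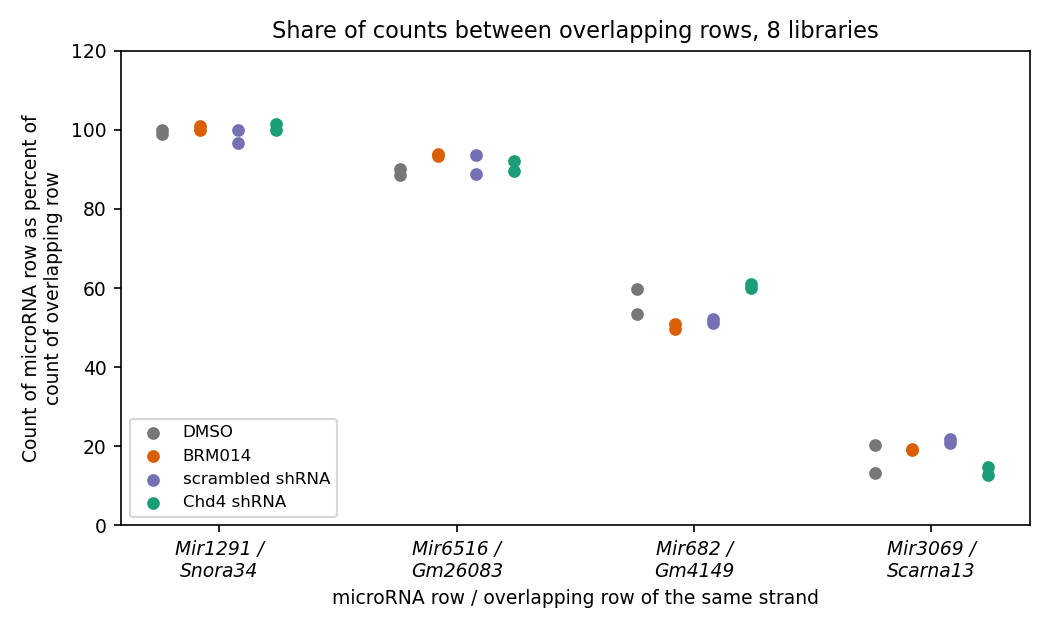
Raw count of 4 microRNA rows as a percent of the raw count of an overlapping row on the same strand (y axis starts at 0), with 1 point for each of the 8 libraries. Mir1291 lies between 96.6% and 101% of Snora34 in all groups, while Mir3069 lies between 12.7% and 21.9% of Scarna13 and is lowest in the Chd4 shRNA libraries and in 1 DMSO library.

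The 3 rows of miR-692 were not called in either comparison. Mir692-3 (chr13:74407065-74407173, plus strand) had normalised counts of 215 and 234 in DMSO, 238 and 260 in BRM014, 161 and 158 in scrambled and 178 and 200 in Chd4 shRNA libraries. Mir692-2 (chr4:125504749-125504857, plus strand) had 157 and 170, 150 and 169, 115 and 106, and 118 and 139 in the same order, and Mir692-1 (chr17:6895229-6895337, minus strand) 32 and 35.5, 31.8 and 37.7, 26 and 23.1, and 31.3 and 25. Their log2 fold changes were between -0.03 ± 0.13 and 0.15 ± 0.12 with BRM014 and between 0.20 ± 0.30 and 0.24 ± 0.16 in the Chd4 shRNA libraries, none called. Ftl1, the gene of ferritin light chain from which the surrounding pseudogenes derive, had -0.04 ± 0.14 and 0.15 ± 0.14. Mir692-3 held between 1.92% and 2.43% of the count of Ftl1. How the authors counted reads with several alignments is not given in the sources used here, so that counts of these near-identical copies are uncertain. The other rows with a mean raw count above 100 and no call were Mir5121, Mir686, Mir3069 and Mir3091. Mir5121 had normalised counts of 834 and 709 in DMSO, 826 and 842 in BRM014, 755 and 821 in scrambled and 667 and 597 in Chd4 shRNA libraries (adjusted p = 0.684 and 0.0688, edgeR), and Mir686 had 194 and 141, 145 and 172, 175 and 187, and 205 and 186 (adjusted p = 0.867 and 0.633, edgeR). Mir3091 had 112 and 86.9, 90.3 and 95.6, 91.6 and 109, and 101 and 71.5 in the same order (adjusted p = 0.815 and 0.425, edgeR). Mir3069 had 130 and 82.0, 101 and 93.7, 162 and 148, and 141 and 148 (adjusted p = 0.766 and 0.702, edgeR), and without DMSO library 2 it was called lower with BRM014 (-0.41, adjusted p = 0.0469, the lowest of its alternatives, which reached 1.00). The rows below a mean of 50 without a call in either comparison had normalised counts between 12.5 (Mir762, Chd4 shRNA library 4) and 56.9 (Mir5114, scrambled library 1).

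Genes that make and use microRNAs were read from a list of 28 in the table, of which 16 passed the expression filter. With BRM014, 1 was lower and 0 were higher in edgeR, where 4.69% and 2.46% of all expressed genes were, so that this count is near the background. This was Dgcr8, the partner of DROSHA, with 246 and 276 normalised counts in DMSO and 177 and 159 in BRM014 libraries, -0.64 ± 0.15 (SE; adjusted p = 0.00819, edgeR). Next in order of p were Trim71, a stem cell ubiquitin ligase and let-7 target, with -0.48 ± 0.15 (adjusted p = 0.0512), Srsf3, a splicing factor that also promotes hairpin processing, with 0.35 ± 0.12 (0.0946), and Srrt, which links the cap-binding complex to primary microRNA processing, with -0.27 ± 0.13 (0.244), none called by edgeR. The median of the 16 was -0.10.

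In the Chd4 shRNA libraries 6 of the 16 were higher and 4 lower, with a median of 0.10, where 20.4% of all expressed genes were higher and 20.2% lower. Dgcr8 had 333 and 246 normalised counts in scrambled and 456 and 457 in Chd4 shRNA libraries (0.66 ± 0.15, adjusted p = 0.00166, edgeR), the opposite direction to BRM014. Ran, the GTPase that drives export of hairpins by exportin 5, fell from 3949 and 4113 to 2194 and 2508 (-0.78 ± 0.13, adjusted p = 0.000139, edgeR). Ago2, the slicing Argonaute, rose from 1206 and 995 to 1792 and 2069 (0.81 ± 0.16, adjusted p = 0.000402, edgeR). Trim71 rose by 0.71 ± 0.15 and Drosha by 0.65 ± 0.14 (adjusted p = 0.000699 and 0.000903, edgeR). For every gene named in this paragraph the groups did not overlap. Dgcr8 had a mean of 37.0 counts per kb, close to the limit of the filter, Trim71 61.8, Ago2 68.5 and Drosha 86.4. Background was 6.78 and 7.21 counts per kb in the Chd4 shRNA libraries and 1.32 and 1.84 in the scrambled ones. The part of background in these rises is not given here. The 12 genes outside the filter, among them Dicer1, Ago3 and the Tnrc6 genes, lay too close to the background of the receptor genes at their exon length and were not tested.

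No call of the 25 rows was kept under every scaling. With library sizes from the ERCC spike-in RNAs after TMM scaling, edgeR called 0 of the 25 rows in either comparison or in the difference (at an unadjusted p under 0.05, 0 higher and 1 lower with BRM014, 0 and 1 in the Chd4 shRNA libraries, and 0 and 2 for the difference), and it called 0 of all 8017 genes with BRM014. DESeq2 on the expressed genes called 3 rows lower and 0 higher with BRM014, and 5 lower and 2 higher in the Chd4 shRNA libraries.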

How the data were processed

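Nascent RNA was measured in 8 libraries. The authors deposited a table of raw read counts for gene rows, made per the submitters' processing notes with Trim Galore 0.6.4, STAR 2.7.1a and featureCounts (mm10), with edgeR 3.32.1 used after that. Counting settings for strand, overlapping rows and reads with several alignments are not given in the sources used here. A separate table of theirs holds counts of 92 ERCC RNAs in the same libraries. The columns numbered 4 (Chd4 shRNA) and 3 (scrambled) were placed by their group names. The 40 chromatin samples were not analysed here.

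The members and lists were chosen with earlier results of these data known. Genes that pass filterByExpr (35426) with a mean count at least 10-fold above the background per kb of 1434 receptor genes (5330.253 kb) were kept, 8017 in all, and scaled by TMM over these genes. The 4 groups entered a single edgeR fit (version 4.0.16, R 4.3.3, quasi-likelihood F test, Benjamini-Hochberg adjustment, no replicate block, call at adjusted p under 0.05), and the SE is taken from F. Normalised counts are raw counts divided by relative library size. The fit was also run on simulated counts with the same spread for all genes and no difference in background between groups. These libraries differ from that setting, so the run does not show how the fit performs on them. Alternatives were other scalings, filters, DESeq2 1.42.0, a replicate block and leaving out each library. Summed over the expressed genes, replicates in all 4 groups differed by more than sampling noise (chi-square per degree of freedom 5.9 to 116). Rows with the highest counts, such as the ribosomal RNA rows, weigh most in this sum. It does not give the replicate noise of a typical row. Total counts limit precision most in the Chd4 shRNA libraries.

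Named rows were, per comparison, up to 8 called members in each direction by p, the 10 highest by mean, the 3 on each side of the minimum, and up to 4 pathway genes by p, with host genes. Overlapping and neighbouring rows, ribosomal RNA rows, Ftl1, Gnb2, Tkt, Mir6904, Mir3076, Mir6418 and Mir5114 beyond this were chosen after their values were seen. The host gene of 1 row is not reported here and its pair was left out. Sequences are from RefSeq GRCm38.p6. Figures were drawn with matplotlib 3.10.9.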

Additional observations from a re-analysis of the deposited data

Results flagged for a closer look

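For 4 rows the effect in the Chd4 shRNA libraries differed from that of BRM014 by the test of the difference in edgeR. For Mir5117 the difference was -1.88 on the log2 scale, from normalised counts of 62.7 and 51.1 with BRM014 against 34.7 and 39.8 with DMSO, and 13.9 and 16.1 with Chd4 shRNA against 35.9 and 37.7 with the scrambled shRNA. Mir684-1 had a difference of -1.54, Mir6516 of 1.07 and Mir1291 of 0.82. All 4 lost the call with library sizes from ERCC RNAs after TMM scaling, and no cause was tested.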

How the results depend on the processing

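Counts of called rows are given as higher and lower for BRM014, for Chd4 shRNA and for the difference, and the values described were 1 and 5, 2 and 6, and 2 and 2. ERCC sizes with TMM gave 0 and 0, 0 and 0, and 0 and 0; plain ERCC sums 0 and 1, 4 and 1, and 2 and 0; TMM over all genes that passed the filter 1 and 3, 0 and 25, and 0 and 24; TMM over short expressed genes 10 and 2, 2 and 6, and 0 and 4. DESeq2 gave 0 and 3 with BRM014, no filter 0 and 3, and all filtered genes, the 30-fold minimum, the own 4 libraries and background subtraction 0 higher in edgeR, each with 1 higher at an unadjusted p under 0.05. The 3-fold minimum gave 0 higher and 15 lower for Chd4 shRNA and 1 and 4 for the difference. Leaving out each library gave 0 to 1 and 3 to 7, 0 to 2 and 3 to 8, and 1 to 2 and 2 to 4.

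With the median expressed gene shifted by -1.34, TMM over all filtered genes turned these Chd4 shRNA changes below 0: Mir682 -0.89, Mir6516 -0.83, Mir692-3 -1.11, Mir686 -1.24, Mir692-2 -1.13, Mir692-1 -1.14, Dgcr8 -0.69, Trim71 -0.64, Srrt -0.92, Ago2 -0.54 and Drosha -0.70. The differences of Mir6236 (-1.10), Mir682 (-1.11), Mir6516 (-0.35), Mir692-3 (-1.33), Mir686 (-1.24), Mir1291 (-0.60), Mir692-2 (-1.17), Mir3069 (-1.40), Mir1894 (-1.33), Mir8094 (-1.38) and Mir692-1 (-1.27) turned likewise. Short-gene TMM shifted the median by 0.46 with BRM014 and set Mir692-2 at 0.43, and plain ERCC sums shifted it by 0.59 and set Srsf3 at 0.15 for Chd4 shRNA. A minimum mean of 10 counts gave 39 rows and one of 50 counts gave 14.

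With the replicate block for BRM014 and DMSO the counts stayed 1 and 5, and 2 and 2 for the difference, and it changed no other call. The correlation of same-numbered deviations was -0.21, and the crossed pairing, chosen after the data were seen, also gave 1 and 5, and 2 and 2. For Chd4 shRNA against scrambled the block could not be fitted. No paired analysis was possible because, in that comparison, the columns share 1 number only. Low counts limit the 11 rows with a mean under 50 most.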
